A study of Mus musculus with 2 samples.

Results

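The regions described are the intergenic PPARγ peaks of mouse TH2 cells that hold neither a DR1 element nor an AP-1 site. PPARγ was mapped by ChIP-seq, which sequences the DNA fragments that an antibody pulls down, and each peak is a region of 173 bp where the fragments pile up over the input. A peak was taken when its centre lay outside every annotated gene and outside promoters (from 1000 bp before to 100 bp after a transcription start site, TSS), within 100 kb of a protein-coding TSS and in sequence not masked as a repeat. In the 200 bp around its centre it had to lack DR1, a direct repeat of AGGTCA with 1 bp between the copies (up to 2 of the 12 fixed bases mismatched, on either strand), and the exact AP-1 site TGACTCA or TGAGTCA. Of 2537 peaks, 913 were intergenic, 677 of these lay within 100 kb of a TSS, 558 were centred outside masked repeats, 426 of those had no DR1, and 340 had no AP-1 site either, which is 13.4% of all peaks. No measured value beyond the position of the peak entered this choice.

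The cells were naive CD4+ T cells of strain C57BL/6J, driven to the TH2 fate in culture, given a retrovirus for TY1-tagged Pparg on day 1 and again on day 2, and harvested on day 4. For ChIP an antibody to the TY1 tag was used, so the receptor mapped is the introduced one, made from the viral vector on top of whatever the cells make themselves. The input, from cells of the same strain, vector and schedule, had no antibody. There was 1 ChIP library and no replicate in the file. Every interval and p-value below therefore takes peaks, windows or genes as units, covers counting error only and says nothing of the spread between cultures. The library held 10229438 tags, of which 54617 lay in peaks, and the rows give no strength for single peaks, so each peak counts once. A list of positions carries no expression values, and the TH2 identity of the cells could not be checked from it.

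PPARγ is a nuclear receptor that pairs with RXR and reads DR1 elements, with PPARγ on the upstream copy and RXR on the downstream one. It is activated by fatty acids and their derivatives, drives lipid storage genes in fat cells, and in TH2 cells is known as a factor of type 2 cytokine responses. Nuclear receptors can also be recruited to DNA through other factors already bound there, among which AP-1, made of FOS, JUN and BATF proteins, is the best known in activated T cells.

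The sequences that carry the results are printed first, each on the plus strand of mm10 and 5′ to 3′. A first set shows the near-consensus forms that remain once DR1 and AP-1 are removed. In the windows near Tmem170b and Slc7a1 the capitals mark a DR1 with 3 mismatches, 1 more than the rule allows. The last 8 capitals of the former are also the monomer site AAAGGTCA, which is marked in the Fancf window. In the windows near Nceh1 and Trh capitals mark TTAGTCA, and near B3galt2 and Rbm15 TGAGTAA (read on the minus strand in the latter), both 1 base away from the AP-1 site. Apart from Fancf and Tmem170b, named by rule for the monomer site, these windows were chosen after their values were seen, as those with the match nearest the centre.
Tmem170b (chr13:41671840-41671939): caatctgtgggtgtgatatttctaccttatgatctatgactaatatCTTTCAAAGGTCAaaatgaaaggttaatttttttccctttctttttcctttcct
Slc7a1 (chr5:148451154-148451253): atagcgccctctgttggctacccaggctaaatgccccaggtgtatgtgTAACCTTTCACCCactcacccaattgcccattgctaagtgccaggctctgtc
Fancf (chr7:51840986-51841085): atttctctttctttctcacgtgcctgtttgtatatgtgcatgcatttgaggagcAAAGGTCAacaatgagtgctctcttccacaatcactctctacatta
Nceh1 (chr3:27175959-27176058): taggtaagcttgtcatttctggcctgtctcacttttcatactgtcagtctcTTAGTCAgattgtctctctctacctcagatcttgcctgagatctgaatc
Trh (chr6:92291040-92291139): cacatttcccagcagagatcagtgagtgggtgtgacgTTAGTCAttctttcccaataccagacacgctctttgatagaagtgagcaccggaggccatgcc
B3galt2 (chr1:143554756-143554855): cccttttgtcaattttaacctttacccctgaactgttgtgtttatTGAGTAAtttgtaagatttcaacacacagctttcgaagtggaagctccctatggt
Rbm15 (chr3:107336014-107336113): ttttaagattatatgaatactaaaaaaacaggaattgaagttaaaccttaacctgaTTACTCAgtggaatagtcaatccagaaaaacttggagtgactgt

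A second set shows the matches of other factors that stood highest over the genome or differed between peak classes, again with the match nearest the centre. Capitals mark a CTCF match near Amhr2 and Dhx40 (1 mismatch in each), overlapping IRF matches near Ccnd2 and Cd200r1 (GAAA, any 2 bases, then GAAA), a STAT5-type match near Huwe1, and the MAF half-site TGCTGA near Tmem247 and Tmtc4. The CTCF pair, the Ccnd2 matches and the Tmem247 half-site are read on the minus strand, and so is the Slc7a1 match above. The MAF pair was chosen after its values were seen.
Amhr2 (chr15:102442637-102442736): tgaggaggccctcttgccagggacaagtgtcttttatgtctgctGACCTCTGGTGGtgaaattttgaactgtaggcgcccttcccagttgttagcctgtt
Dhx40 (chr11:86836548-86836647): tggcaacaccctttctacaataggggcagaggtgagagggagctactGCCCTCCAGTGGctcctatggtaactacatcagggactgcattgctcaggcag
Ccnd2 (chr6:127246000-127246099): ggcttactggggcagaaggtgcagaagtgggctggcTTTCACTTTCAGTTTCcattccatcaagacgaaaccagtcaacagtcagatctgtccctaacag
Cd200r1 (chr16:44762065-44762164): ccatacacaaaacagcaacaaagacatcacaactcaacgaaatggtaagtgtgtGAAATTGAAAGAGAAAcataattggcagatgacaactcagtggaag
Huwe1 (chrX:151780492-151780591): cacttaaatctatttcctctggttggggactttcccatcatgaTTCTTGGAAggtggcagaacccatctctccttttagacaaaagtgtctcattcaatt
Tmem247 (chr17:86881681-86881780): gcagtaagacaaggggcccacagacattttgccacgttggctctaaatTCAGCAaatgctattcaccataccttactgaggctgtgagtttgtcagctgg
Tmtc4 (chr14:123015967-123016066): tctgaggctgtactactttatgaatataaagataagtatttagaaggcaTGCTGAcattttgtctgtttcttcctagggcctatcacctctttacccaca

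The last set gives the full 200 bp around peaks near genes of T cell and lipid biology. Capitals mark the stretch most like DR1 (where several were equally like it, the one nearest the centre), to show how far these windows are from the element: 3 mismatches near Socs3, 4 near Cd200r1, Nfatc3, Ikzf2, Pdk4 and Plin2, and 5 near Lif.
Socs3 (chr11:117970217-117970416): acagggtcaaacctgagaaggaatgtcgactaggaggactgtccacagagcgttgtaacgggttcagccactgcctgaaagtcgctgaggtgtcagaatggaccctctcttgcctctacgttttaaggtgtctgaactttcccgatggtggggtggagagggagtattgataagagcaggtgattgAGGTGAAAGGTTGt
Cd200r1 (chr16:44762015-44762214): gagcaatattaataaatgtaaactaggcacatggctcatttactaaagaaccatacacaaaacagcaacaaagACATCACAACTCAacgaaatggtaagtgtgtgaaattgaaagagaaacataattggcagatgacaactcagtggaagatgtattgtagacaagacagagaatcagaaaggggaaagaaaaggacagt
Lif (chr11:4297101-4297300): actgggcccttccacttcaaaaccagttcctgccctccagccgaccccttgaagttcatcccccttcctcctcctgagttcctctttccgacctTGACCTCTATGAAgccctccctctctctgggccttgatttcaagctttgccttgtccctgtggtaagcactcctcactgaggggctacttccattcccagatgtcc
Nfatc3 (chr8:106054215-106054414): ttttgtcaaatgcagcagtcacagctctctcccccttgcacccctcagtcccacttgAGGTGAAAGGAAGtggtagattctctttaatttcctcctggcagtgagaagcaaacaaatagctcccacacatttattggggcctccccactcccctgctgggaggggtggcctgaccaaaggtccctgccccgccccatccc
Ikzf2 (chr1:69688986-69689185): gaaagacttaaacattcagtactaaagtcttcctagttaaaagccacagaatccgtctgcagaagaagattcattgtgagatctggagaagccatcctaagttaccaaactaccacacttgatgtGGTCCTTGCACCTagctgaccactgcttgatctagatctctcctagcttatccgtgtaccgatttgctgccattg
Pdk4 (chr6:5505125-5505324): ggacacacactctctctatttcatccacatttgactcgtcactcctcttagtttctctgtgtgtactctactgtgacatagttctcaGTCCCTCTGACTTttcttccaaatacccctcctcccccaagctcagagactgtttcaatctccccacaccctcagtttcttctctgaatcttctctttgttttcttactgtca
Plin2 (chr4:86670996-86671195): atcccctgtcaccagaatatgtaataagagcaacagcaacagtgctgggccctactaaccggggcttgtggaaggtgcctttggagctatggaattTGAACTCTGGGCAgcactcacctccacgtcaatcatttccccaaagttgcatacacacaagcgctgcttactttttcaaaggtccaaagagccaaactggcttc

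The peaks lay nearer to start sites than the intergenic genome open to the same rule. They were compared with 169366 windows of 200 bp, placed every 2000 bp along mm10, that met the same location, repeat and motif rule and overlapped no peak (called grid windows below). From peak centre to nearest protein-coding TSS the median distance was 22.3 kb, with quartiles of 8.83 and 44.7 kb and a range of 1.03 to 98.8 kb. The grid windows had a median of 28.8 kb and quartiles of 11.9 and 56.0 kb. Within 10 kb of a TSS lay 95 of the 340 peaks (27.9%, exact 95% binomial interval 23.2 to 33.0) and 21.4% of the grid windows. Within 2 kb the shares were 6.47% (22 peaks, interval 4.10 to 9.63) and 2.84%. Intergenic peaks with DR1, at 34.1% within 10 kb (interval 26.1 to 42.8), lay on the same side of the grid. Intergenic AP-1 peaks had values close to the grid, 22.1% within 10 kb (interval 13.9 to 32.3) and 2.33% within 2 kb. The nearest TSS pointed away from the peak in 252 cases, that is, 74.1% of the peaks were upstream of it (interval 69.1 to 78.7), against 68.3% of the grid windows.

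**Figure D1:**
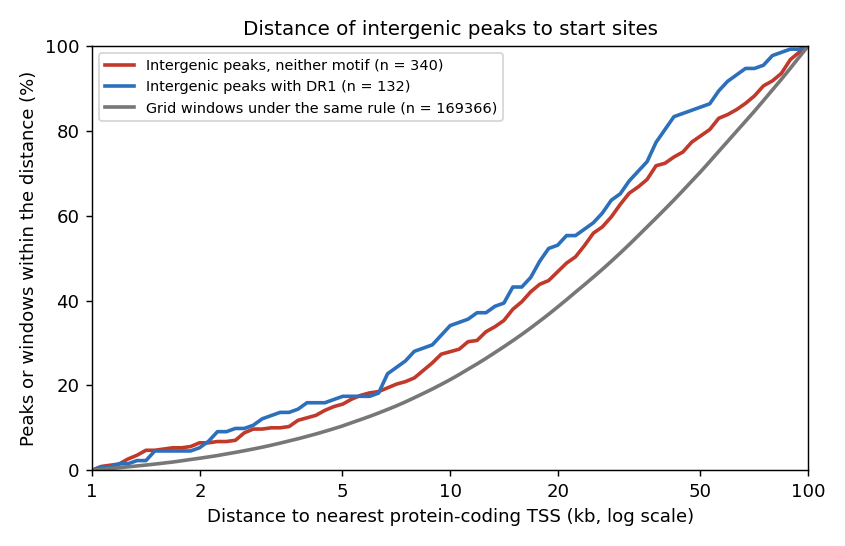
Share of regions (vertical axis, %) within a given distance of the nearest protein-coding TSS (horizontal axis, kb, log scale) for the 340 intergenic peaks without DR1 or AP-1, the 132 intergenic peaks with DR1 and the 169366 grid windows. Both peak curves run above the grid curve at 10 kb, at 27.9% and 34.1% against 21.4%.

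GC content was close to that of the surroundings, with a median of 44.0% in the peaks and 43.0% in the grid windows. All chromosomes but Y held such peaks, from 5 on X to 29 each on chromosomes 1 and 11. Chromosome 18 gave 16 of its 57 peaks (28.1%) and chromosome 5 gave 11 of 146 (7.53%), which were the highest and lowest shares apart from Y. The peaks were spread over the rows of the file, with 173 of the 340 above its middle row. At the edges of the rule, the farthest peaks inside the limit lay 98.8 kb from Tsen15 and 98.1 kb from Trabd2b, and the nearest ones outside it 103 kb from Slc17a6 and from Tbl1xr1.

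Many of the peaks without DR1 still held a stretch that resembles it. Counted over both strands, the best match in the window had 3 mismatches in 126 peaks, 4 in 152 and 5 in 62. On the excluded side, 95 peaks of the same location had a best match with 2 mismatches, 32 with 1 and 5 with none. A best match of exactly 3 mismatches, called a near DR1 below, thus occurred in 37.1% of the peaks (interval 31.9 to 42.4). The intronic peaks without DR1 or AP-1, 635 in number and chosen by the same sequence rule, gave 38.7%, while the grid windows gave 16.7%, or 17.4% when weighted to the GC content of the peaks. The peaks thus had 2.13 times the GC-weighted share (interval 1.83 to 2.44). With the letters of the repeat read backwards, which keeps its composition, 19.4% of the peaks had a match with up to 3 mismatches.

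The near DR1 stretches also carried features of the element that the search did not use. Matches with 3 mismatches reached 2.91 per kb within 50 bp of the peak centre and 1.26 per kb at 300 to 500 bp from it, a ratio of 2.30. Because the rule removes only better matches near the centre, this comparison of distances is a description. The match lay within 50 bp of the centre in 69.0% of the peaks that had one and in 57% of such grid windows, at median distances of 32 and 43.5 bp. The base between the 2 copies, which the search left free, was adenine in 62 of the 126 (49.2%, interval 40.2 to 58.3), in 53.9% of the intronic near DR1s and in 25.4% of those in the grid. The base just upstream of the repeat, also free, was thymine in 48 of them (38.1%, interval 29.6 to 47.2), against 49.4% in introns and 20.1% in the grid. In the DR1 of PPARγ and RXR both positions are known to matter, with the upstream flank contacted by PPARγ. Both bases together were found in 26 peaks (7.65%), and the windows near Tmem170b and Slc7a1 printed above are examples.

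Mismatches were not spread evenly along the near DR1. In the upstream copy of the repeat they fell most often on the fifth base (41.3% of the 126), the fourth (39.7%) and the first (34.9%). They fell least on the sixth (13.5%) and the second (14.3%). The order differed in the intronic near DR1s, with 49.8% on the fourth base, 33.1% on the first and 32.7% on the fifth. In the downstream copy the range was 15.9 to 31.7%. The grid windows had a flatter profile in the upstream copy, from 19.1 to 31.0%. Their downstream copy, from 17.5 to 32.0%, had a range close to that of the peaks.

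For AP-1 the excess of near matches was smaller. A site 1 base away from TGACTCA or TGAGTCA was present in 210 of the 340 peaks (61.8%, interval 56.4 to 67.0). The grid windows weighted by GC content gave 46.3%, a ratio of 1.33. With the letters of the site read backwards, 55% of the peaks had a match with up to 1 mismatch. Another 127 peaks had at best 2 mismatches and 3 had 3, and the 86 peaks excluded by the AP-1 rule had none. The 19 words that such a mismatch can give, joined with their reverse complements, were not equally common. TTAGTCA occurred in 32 peaks (9.41%, interval 6.53 to 13) and 2.64% of the weighted grid windows, a ratio of 3.56. TGAGTAA occurred in 30 peaks (8.82%, interval 6.03 to 12.4) against 2.56%, a ratio of 3.44. At the other end TGAGCCA was found in 3.82% against 5.58%, a ratio of 0.686. The leading word was also dense at the centre, at 0.588 matches per kb within 50 bp against 0.140 at 300 to 500 bp, and TGAGTAA gave 0.294 against 0.132. The latter does not set TGAGTAA apart, since TAAGTCA, with a ratio over the grid of 0.949, gave 0.235 against 0.0956. These words were looked at after the share of sites with 1 mismatch was known, so they are given as a description.

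The same forms headed a search that used no known motif. It covered the same peaks and grid windows, so it is not independent of the counts above. Words entered it through their count in these peaks, and the ratios are given as a description. Of the 308 words of 8 bases present in at least 10 peaks, ATTACTCA stood highest over the weighted grid (4.41% against 0.583%, a ratio of 7.57), followed by TAGTCAGA (6.84) and ACCTTTCA (6.06). ATTACTCA contains TGAGTAA on the other strand, and TAGTCAGA holds the last 6 bases of TTAGTCA. ACCTTTCA is the middle of the near DR1 in the Slc7a1 window, across its spacer. Next came GTGAGTAA (5.97), CTGACTAA (5.94) and CAAAGGTC (5.77), which are extended forms of TGAGTAA, of TTAGTCA and of the DR1 spacer region.

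Near DR1 and the 2 leading AP-1 words together covered close to 1 peak in 2. At least 1 of these forms was present in 162 peaks (47.6%, interval 42.2 to 53.1), in 48.8% of the intronic peaks and in 21.7% of the weighted grid windows. The other 178 peaks (52.4%) had neither. The words had been picked from these peaks, so that the excess over the grid is not independent of that choice. The GATA site (AGATAA or TGATAA), read by the TH2 regulator GATA3, was found in 26.4% of the 178 and 27.8% of the 162, and the IRF site in 6.74 and 6.17%.

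Sites of other factors were then counted among 49 motifs searched on both strands in the same 200 bp, with overlapping matches allowed. The 4 highest over the GC-weighted grid, among those in at least 10 peaks, were the monomer site AAAGGTCA, CTCF, IRF and the STAT5 type. The monomer site, read by NR4A orphan receptors and also the downstream end of a DR1, was present in 15 peaks (4.41%, interval 2.49 to 7.17) against 0.920% of the weighted grid windows, a ratio of 4.80. It was 6.00 times as dense within 50 bp of the centre as at 300 to 500 bp. Its share among intronic peaks was 7.09% and among intergenic DR1 peaks, where the element itself contains it, 18.9%. The peaks near Tmem170b, Fancf, Slc38a2, Utp6 and Huwe1 held both the monomer site and a near DR1. The excess of the monomer site is thus not separate from that of the near DR1. The plain half-site AGGTCA was found in 62 peaks (18.2%) against 11.4%, a ratio of 1.60.

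CTCF, the factor that anchors chromatin loops and insulates domains, had a match in 20 peaks (5.88%, interval 3.63 to 8.94) and in 1.56% of the weighted grid windows, a ratio of 3.78. At the centre there were 0.441 matches per kb and at 300 to 500 bp 0.103. With the motif's letters reversed 1 peak matched. Reversed, however, the motif gains the base pair step CG, of which the grid windows held a median of 1 in 200 bp. The grid share of the reversed letters was not counted, so this match count does not measure the CTCF excess. IRF sites, which in T cells are read by IRF4 among others, were in 22 peaks (6.47%, interval 4.10 to 9.63) against 2.67%, with 0.5 matches per kb at the centre and 0.147 at the flank. The IRF share was 5.81% in intergenic AP-1, 3.03% in intergenic DR1 and 3.46% in intronic peaks. STAT5-type sites (TTC, C or T, any base, A or G, then GAA), which serve interleukin-2 and other cytokine signals, were in 25 peaks (7.35%, interval 4.81 to 10.7) against 3.06%. The other peak classes also stood above the grid for these sites. They had 5.83% in intronic, 6.06% in intergenic DR1 and 5.81% in intergenic AP-1 peaks. The reversed letters of IRF and of the STAT5 type each matched 8 peaks.

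Sites of further lymphoid factors had lower ratios over the grid. ETS sites were in 60 peaks (17.6% against 11.9%, a ratio of 1.48), NF-kB sites in 14 (4.12% against 1.91%, a ratio of 2.16) and RUNX sites in 23 (6.76% against 4.91%). GATA sites were in 92 peaks (27.1%, interval 22.4 to 32.1) against 21.6%, though the unweighted grid share, 23.2%, lay inside that interval. NFAT sites (TGGAAAA), which respond to calcium signals from the T cell receptor, were in 19 peaks (5.59%, interval 3.40 to 8.59) against 6.19%, within the counting interval. SRF, CRE and the joint site of AP-1 and IRF were found in 0 of 340 peaks, which allows a share of up to 1.08% (exact interval). The weighted grid shares were 1.20% for SRF, 0.120% for CRE and 0.0419% for the joint site. CRE and the joint site are thus too rare in the grid for their counts to show a difference. The AP-1 rule also removes every joint site that holds TGACTCA or TGAGTCA. Of the 340 peaks, 13 held no match to any of the 33 motifs that share no letters with DR1 or AP-1. The counts were 44 of 635 intronic, 11 of 132 intergenic DR1 and 3 of 86 intergenic AP-1 peaks, and the grid was not counted.

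**Figure D2:**
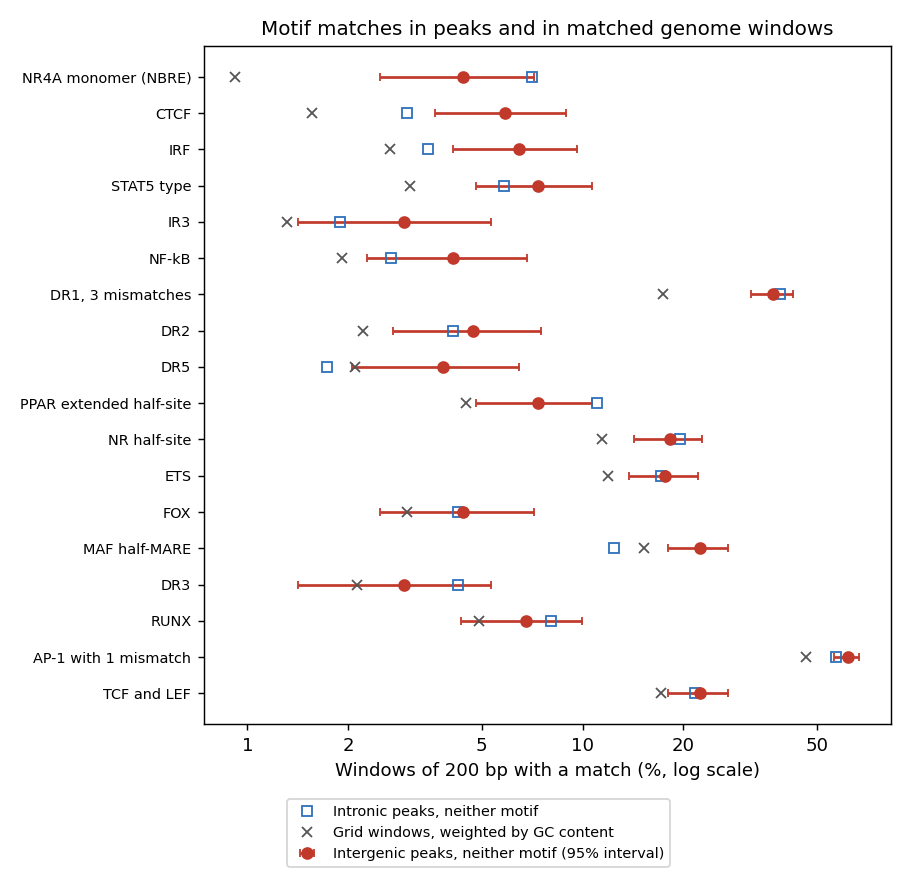
Share of 200 bp windows with a match (horizontal axis, %, log scale) for the 18 motifs with the highest ratio over the grid among those in at least 10 peaks. Points with exact 95% intervals are the 340 intergenic peaks, squares the 635 intronic peaks and crosses the grid windows weighted by GC content. CTCF stands at 5.88% against 1.56% in the grid, and the MAF half-site at 22.4% against 15.2% in the grid and 12.4% in introns.

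Set against intronic peaks chosen by the same sequence rule, the intergenic ones differed in the MAF half-site TGCTGA. It was present in 76 of 340 intergenic peaks (22.4%, interval 18 to 27.2) and 79 of 635 intronic peaks (12.4%), a log2 odds ratio of 1.02 ± 0.25 SE (adjusted p = 0.00365, Fisher's exact test, two-sided, adjusted over the 49 motifs). This was the single call among 49 tested, or 2.04%, and 4 motifs had an unadjusted p under 0.05. MAF proteins are bZIP factors, and c-MAF is a known activator of type 2 cytokine genes. The grid windows held the half-site in 15.2% after weighting, and intronic windows of a grid built the same way in 14.8%, so that the intergenic share lay above its surroundings by more than its interval, with the intronic 12.4% on the other side. Its density was 1.32 per kb within 50 bp of the intergenic centres against 0.743 at the flank, and 0.709 against 0.929 for the intronic peaks. The call was lost when motifs were counted in 100 bp (log2 odds ratio 0.96, exact adjusted p = 0.203) or 400 bp (0.57, adjusted p = 0.207). It was also lost in the rows above the middle of the file (1.16, exact adjusted p = 0.066) and in those below it (0.86, adjusted p = 0.378), where fewer peaks were tested.

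CTCF and IRF had higher shares in these intergenic peaks than in the intronic ones but did not pass after adjustment. For CTCF the shares were 5.88 and 2.99% (log2 odds ratio 1.02, 95% interval 0.10 to 1.93, exact adjusted p = 0.470). For IRF they were 6.47 and 3.46% (0.95, interval 0.08 to 1.81, exact adjusted p = 0.470). SRF was in 0 of 340 intergenic and 1.73% of intronic peaks (exact adjusted p = 0.258). The shares of near DR1 (37.1 and 38.7%), of ETS (17.6 and 17.2%) and of GATA sites (27.1 and 26.8%) were close in value.

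**Figure D3:**
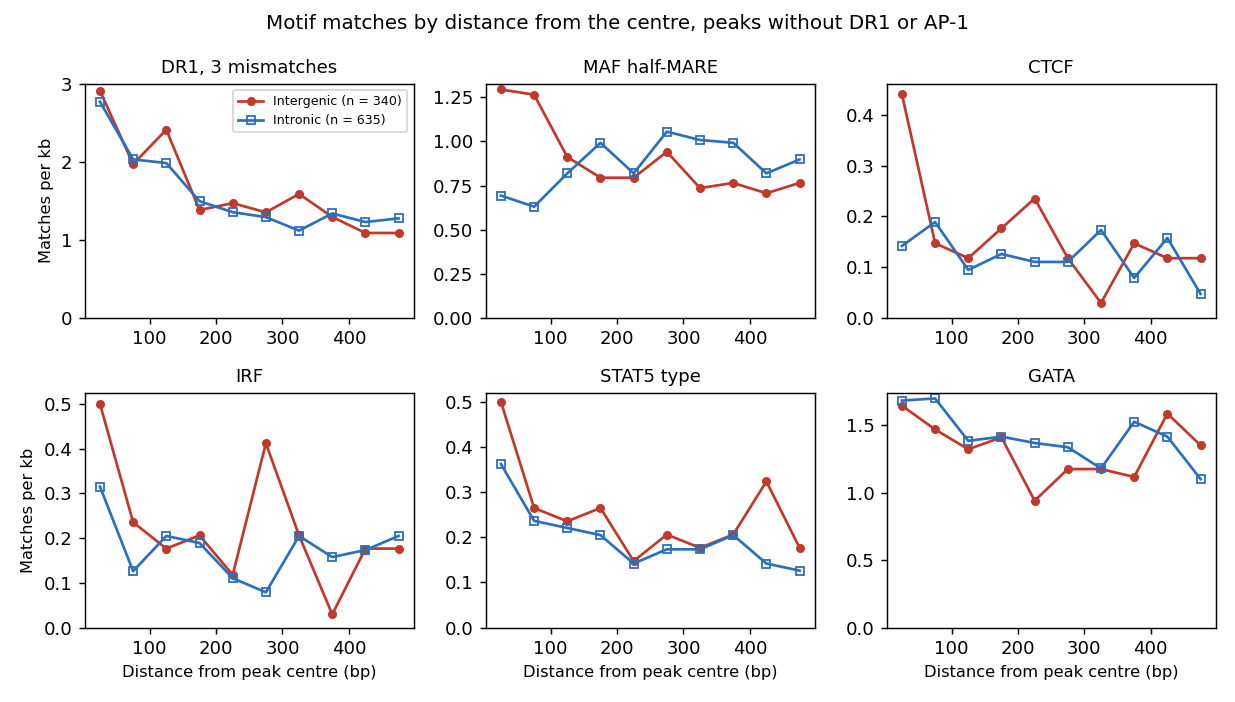
Matches per kb (vertical axes) in 50 bp steps of distance from the peak centre (horizontal axes, bp) for 6 motifs in the 340 intergenic and 635 intronic peaks without DR1 or AP-1. For CTCF the intergenic peaks reach 0.441 per kb in the first step, where the intronic ones have 0.142, and the MAF half-site is dense at the centre in the intergenic class alone of the pair drawn.

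Against the other intergenic peaks no tested motif passed. The MAF half-site shares letters with the rule and was not tested here, and its shares were 22.4% in the peaks, 16.7% in the DR1 peaks and 22.1% in the AP-1 peaks. Over the 33 motifs free of DR1 and AP-1 letters, 0 (0%) were called against the 132 intergenic DR1 peaks and 0 (0%) against the 86 intergenic AP-1 peaks, by Fisher's exact test after adjustment, with 2 and 1 at an unadjusted p under 0.05. CTCF had a match in 5.88% of the peaks, in 1.52% of the DR1 peaks (exact adjusted p = 0.554) and in 0 of the 86 AP-1 peaks (exact adjusted p = 0.619). GATA sites were in 27.1% against 37.2% of the AP-1 peaks, with a log2 odds ratio of -0.68 (interval -1.39 to 0.04, exact adjusted p = 1).

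The nearest other peak of any kind lay at a median of 69.7 kb, against 86.5 kb for the intronic peaks, 53.8 kb for the intergenic DR1 peaks and 126.7 kb for the intergenic AP-1 peaks. It lay within 50 kb for 45.0% of the peaks and within 10 kb for 76 of the 340 (22.4%, interval 18 to 27.2). The share within 10 kb was 17.5% for the intronic peaks (interval 14.6 to 20.7), 28.8% for the DR1 peaks (interval 21.2 to 37.3) and 17.4% for the AP-1 peaks (interval 10.1 to 27.1). The gene with the nearest TSS had a further peak in 133 cases (39.1%), and in 40 cases (11.8%) 1 with DR1.

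Each peak was linked to the gene of its nearest protein-coding TSS, a rule of position that does not show which gene a peak acts on. The 340 peaks gave 313 genes, or 1.43% of the 21827 protein-coding genes, peaks of any kind gave 7.69%, and the intronic peaks without DR1 or AP-1 gave 2.57%. Of the 313, 289 had 1 peak of this class, 21 had 2 and 3 had 3. The list counts below are to be read against 1.43%, and the lists overlap, so that their genes number 37 once each is counted a single time. Peaks of any kind were also common in some lists, against 7.69% of all genes. They were found for 12 of 45 TNF and NF-kB genes and 14 of 40 TH2 genes. Inhibitors of signalling had 22 of 44 and lymphoid transcription factors 18 of 47. Ribosomal proteins had 2 of 36 and B cell markers 1 of 18. A list share above 1.43% is therefore not by itself a trait of this class. Within 50 kb alone, where 1.15% of all genes had such a peak, inhibitors of signalling had 2 genes, nuclear receptors 0 and nutrient transport 1. With every gene whose TSS lies within 50 kb, the share of all genes was 2.39%, and TH2 had 8 genes, regulatory T cells 5, ribosomal proteins 3 and hepatocyte markers 2.

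Genes of the TNF superfamily and the NF-kB pathway had 6 of 45 (13.3%, interval 5.05 to 26.8), the highest share by the nearest TSS within 100 kb. Both other assignments placed the TH2 list above it, with 5 of 40 genes against 5 of 45 within 50 kb and 8 of 40 against 5 of 45 with every TSS within 50 kb. Tnfsf4, which encodes the OX40 ligand, had 3 such peaks, 16.1, 16.7 and 65.9 kb upstream of its TSS, among 5 peaks in all. Tnfsf8, the gene of the CD30 ligand, had a pair 78.2 and 78.6 kb upstream, and Tnfrsf8, the gene of CD30 itself, a near DR1 peak 23.6 kb upstream. The signalling adaptor gene Traf1 had a peak at 2.61 kb with a MAF half-site. Nfkb1, which encodes an NF-kB subunit, had peaks at 30.7 and 41.5 kb, and Nfkbiz, whose product is a nuclear regulator of NF-kB, had 1 at 16.5 kb. None of these 6 genes had a DR1 peak.

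The TH2 list followed with 5 of 40 genes (12.5%, interval 4.19 to 26.8), while the TH1 list had 0 of 30 (interval up to 11.6%). The difference was not tested. Intronic peaks without DR1 or AP-1 went the other way, with 1 of 40 TH2 genes and 4 of 30 TH1 genes. Peaks of any kind were found for 14 of the TH2 and 6 of the TH1 genes. Cd200r1, which encodes an inhibitory receptor of the immunoglobulin family, had a peak 3.62 kb upstream at chr16:44762029-44762201 with the paired IRF matches printed above. Irf4, a transcription factor needed for TH2 differentiation, had a near DR1 peak 24.2 kb upstream and another peak 55.4 kb downstream. Lif, a cytokine gene, had a peak 30.1 kb downstream at chr11:4297115-4297287, by mismatches the window farthest from DR1 of those printed in full. The marked stretch there still holds an exact half-site AGGTCA on the minus strand, and Lif also had 1 DR1 peak. Il10, the gene of an anti-inflammatory cytokine, had 1 with an IRF match at 30.4 kb. Nfil3, a bZIP repressor gene, had a near DR1 peak at 37.1 kb.

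Inhibitors of cytokine and inflammatory signalling had 5 of 44 genes (11.4%, interval 3.79 to 24.6). Socs3, which blocks JAK and STAT signalling, had the closest, 1.13 kb upstream at chr11:117970231-117970403. Rgs1, which dampens signals from chemokine receptors, had 3 of the class among 4 peaks, 7.73 and 59.1 kb upstream and 18.1 kb downstream. The outer pair each held a MAF half-site and the inner peak had neither that nor a near DR1. Tnfaip3, the gene of the NF-kB inhibitor A20, had a peak with an IRF match at 56.2 kb and also 2 DR1 peaks. The mRNA decay gene Zfp36l2 had a peak at 70.8 kb, and the tyrosine phosphatase gene Ptpn1 near DR1 peaks at 82.2 and 84.4 kb.

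Lymphoid transcription factor genes had 5 of 47 (10.6%, interval 3.55 to 23.1). Besides Irf4 and Nfkb1 these were Ikzf2, which encodes Helios, with a peak at 1.84 kb, Ets2 and Klf6. Ets2 had a pair of near DR1 peaks 16.2 and 19.4 kb upstream, and Klf6 a pair at 91.8 and 93.4 kb. Regulatory T cell genes had 3 of 30, Ikzf2, Il10 and, at 67.4 kb, the interleukin-12 subunit gene Il12a. TH17 genes had 2 of 25, Irf4 and Nfkbiz.

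Metabolic genes formed a smaller group. The list of lipid storage, uptake and synthesis had 4 of 46 (8.70%, interval 2.42 to 20.8). Plin2, which encodes a coat protein of lipid droplets, had 2 peaks of the class, 1.04 kb (chr4:86671010-86671182) and 19.5 kb upstream, beside 2 DR1 peaks. Hilpda, whose product slows triglyceride breakdown, had a near DR1 peak at 5.32 kb, also beside 2 DR1 peaks. Angptl4, which encodes an inhibitor of lipoprotein lipase, had a peak at 7.08 kb, and Gpam, the gene of an enzyme that starts triglyceride synthesis, had 1 at 12.1 kb. Pdk4, a kinase gene that steers cells from glucose to fat as fuel, was the sole 1 of 44 genes of fatty acid oxidation, at 8.92 kb, and cholesterol genes had 0 of 30. Pdk4 also had 1 DR1 peak. Of the 44 fatty acid oxidation genes, 20 had a peak of any kind and 7 an intronic peak without DR1 or AP-1.

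Glycolysis, hypoxia and nutrient transport had 3 of 35 genes. Slc38a2, a neutral amino acid transporter gene, had a peak at 10.9 kb with a near DR1 and the monomer site, in row 15 of the file. Slc7a1, a transporter gene for cationic amino acids, had the near DR1 peak at 51.3 kb whose sequence is printed above, which also held a CTCF match. Egln3, which encodes an oxygen-sensing prolyl hydroxylase, had a peak at 94.9 kb.

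The other lists of T cell genes had few members. Secreted cytokines and chemokines had 3 of 43 (Lif, Il10 and Tnfsf8). Chemokine receptors, integrins and homing had 2 of 34, Ccrl2 at 28.1 kb and Ccr1, with peaks at 33.1 and 36.6 kb that both held a MAF half-site. Nuclear receptors and coregulators had 2 of 45, the corepressor gene Nrip1 at 92.5 kb and the glucocorticoid receptor gene Nr3c1 at 95 kb. A single gene was found in each of the lists of cytokine receptors, JAK and STAT (Il7r, 33.0 kb), T cell receptor signalling (Nfatc3, 4.53 kb, of 43) and bZIP factors (Nfil3, of 38).

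Genes of other cells and of ubiquitous machinery were not free of such peaks. Cytosolic ribosomal proteins had 2 of 36 (Rpl3 and Rpl34; 5.56%, interval 0.680 to 18.7) and B cell markers 1 of 18 (Cd79b, 3.73 kb). The lists of macrophage and dendritic cell, adipocyte and hepatocyte markers had 0 of 21, 0 of 19 and 0 of 19 genes. These intervals overlap those of every T cell list above.

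**Figure D4:**
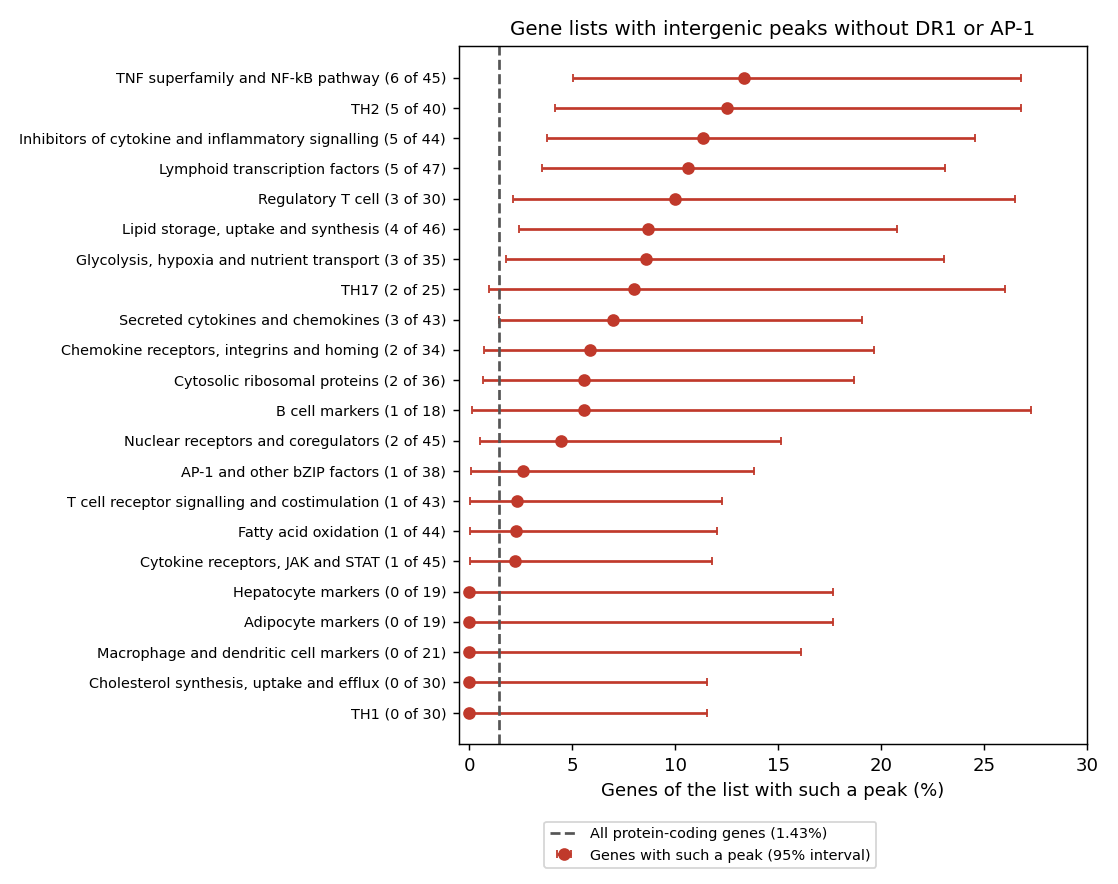
Share of the genes of each of 22 lists that hold the protein-coding TSS nearest to an intergenic peak without DR1 or AP-1 (horizontal axis, %), with exact 95% intervals and, as a dashed line, the 1.43% of all protein-coding genes. TNF superfamily and NF-kB genes stand at 13.3% and TH2 genes at 12.5%, an order that turns around within 50 kb, and the intervals of the lists are wide and overlap.

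By number of such peaks, Rgs1, Tnfsf4 and Map3k8 led with 3 each. Map3k8, a kinase gene of the NF-kB and ERK pathways, had its 3 at 39.0, 41.4 and 86.7 kb downstream of the TSS, and the latter 2 were near DR1 peaks. Among the 21 genes with 2, those with close peaks included, after Plin2, Capza2 (2.80 kb), which encodes an actin capping protein, Fam126a (3.70 kb) and Mbd2 (3.85 kb), which encodes a reader of methylated DNA. The transcription factor gene Mef2a had its closer peak at 8.23 kb.

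The 10 peaks closest to a TSS, all upstream, lay between 1.03 and 1.28 kb from it, just beyond the promoter limit. They belonged to the immediate early gene Ier3, Plin2, the metalloproteinase gene Mmp10, Utp6, Socs3, Tmco4, Rab19, Stk40, the growth kinase gene Mtor and Abcf1. Near DR1 stretches were present at Ier3, Utp6, Socs3, Rab19 and Abcf1. The Utp6 peak also held the monomer site and an IRF match, and the Mmp10 peak a MAF half-site.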

How the data were processed

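ChIP-seq of TY1-tagged PPARγ was made in mouse TH2 cells (1 ChIP and 1 input library). Bowtie2 alignment to mm10, unique tags only, and HOMER peak calling against the input are named by the submitters' processing notes and series text, with no versions given in the sources used here. Uniquely mapped tags leave out exact repeats. Per the file headers, a peak needed 8 tags (false discovery rate 0.001) and 4 times the tags of the input and of the 10000 bp around it. The score column of the deposited file is 1 in every row and ranks nothing, so no score was used.

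Positions were read as deposited and are counted from 1. Genes came from GENCODE vM21, with start sites from its basic transcripts, and sequence and repeat masking from the RefSeq FASTA of GRCm38. Motif shares were compared between peak classes by Fisher's exact test, two-sided, with Benjamini-Hochberg adjustment (threshold 0.05) over 49 motifs against intronic peaks, and over the 33 that share no letters with DR1 or AP-1 against the other classes. Grid windows were weighted to the GC content of the peaks in 2% bins and serve as a description. Intervals are exact binomial (Clopper-Pearson, 95%), those of odds ratios Wald. The motif search and tests were tried on simulated data. The 22 gene lists had 777 of 779 symbols matched.

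The members and lists were chosen with earlier results of these data known. Named are, per list, up to 5 genes by distance, the 10 genes with most such peaks, the 10 peaks closest to a TSS, and 2 peaks for each of the 4 motifs highest over the grid. A few items that this rule names are not reported here. No sequence on chromosome 18 is printed. Alternatives covered annotation, promoter width, distance, repeats, window, mismatches, rows and gene assignment. The scripts ran in Python 3.11.15 with scipy 1.17.1, numpy 2.4.6, pandas 2.3.3 and, for plots, matplotlib 3.10.9.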

Additional observations from a re-analysis of the deposited data

How the results depend on the processing

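The number of peaks was 214 when DR1 was allowed 3 mismatches and lay between 268 and 428 under the other alternatives. 1 of these, every annotated transcript giving start sites (354 peaks), was added after the data were seen. Against intronic peaks, 0 motifs passed in place of 1 when matches were counted in 100 bp or in 400 bp, and among the rows above or below the middle of the file, where fewer peaks were tested; for the 2 window sizes the cause was not tested. The MAF half-site was called under the other alternatives run. The GATA log2 odds ratio, 0.02, was -0.31 among the rows above the middle and -0.050 with every transcript, none called. The ratios over the grid and the share within 10 kb (27.4 to 28.2%) moved less than their intervals. List genes numbered 37, where 1.43% of all genes had such a peak, 26 within 50 kb (1.15% of all) and 44 with every gene whose TSS lies within 50 kb (2.39%). No paired analysis was possible because the file holds 1 ChIP library. Without tag counts for single peaks, weak and strong peaks weigh the same.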
